A study of Mus musculus with 54 samples.

Results

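Expression of 10 genes of the circadian clock and its output was followed in the dentate gyrus (DG) and the lateral entorhinal cortex (LEC) of mice that were given AICAR or a running wheel. The genes were Per1, Per2, Per3, Cry1, Clock, Nr1d1, Nr1d2, Dbp, Tef and Hlf. They were taken by gene symbol from the probes of Illumina MouseRef-8 bead arrays, so they make up 10 of the 16590 named genes and 18 of the 25697 probes. AICAR is an agonist of AMP-activated protein kinase, an energy sensor that running also activates in muscle. Male C57BL/6J mice, 1 month old at the start and housed singly, received AICAR (ACR, 500 mg/kg/day in saline by intraperitoneal injection), wheels with saline injections (RUN), or saline injections alone (CTR). Daily saline is stated by the study for up to 14 days, and how often the 28-day groups were injected is not given in the sources used here. The AICAR groups were ACR7 and ACR14, the running groups RUN7, RUN14 and RUN28, and the controls CTR7, CTR14, CTR28 and CTR14b, where the number is the day of death under isoflurane. CTR14b is a second 14-day control set whose labels carry the same set mark as ACR14, and CTR14 is the control of RUN14. Each group held 3 mice per region, except 2 in DG CTR14 and 4 in LEC CTR28, which gave 26 DG and 28 LEC arrays from 33 mice. Replicate numbers run within each region, so the same number can name different mice in DG and LEC. For the arrays, the study chose within each group the RNA samples with the best purity and concentration. The hour of death is not given in the sources used here.

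The molecular clock is a transcriptional loop. CLOCK and its partner BMAL1 bind E-box sequences and switch on the Per and Cry genes, whose protein products then repress CLOCK and BMAL1. The nuclear receptors REV-ERB alpha (Nr1d1) and REV-ERB beta (Nr1d2) act on ROR elements in a second loop, and DBP, TEF and HLF are related PAR bZIP proteins that carry the rhythm to other genes through D-boxes. Per1 and Per2 are also induced within minutes to hours by neuronal activity, by way of CREB and its CRE site, and by glucocorticoids. In forebrain regions such as hippocampus and cortex, most of these transcripts vary with the time of day.

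Levels are given as scaled log2 intensity, in which 0 is the mean of all probes on the same array. Differences are log2 fold changes with their standard error (SE) from limma, a gene counts as called at an adjusted p under 0.05, and adjustment ran over all genes tested in a region (8756 in DG and 8544 in LEC). Between 11495 and 13219 probes were detected per DG array and between 11575 and 12229 per LEC array, and arrays of a group correlated at 0.957 to 0.994. The region labels held for the granule neuron markers. Of these, 2 of 5 were tested, and their mean level was 2.97 to 5.23 on DG arrays, against -0.48 to 0.89 on LEC arrays. Cortical layer markers (6 of 7 tested) did not separate the regions, at 1.03 to 1.76 on DG arrays, against 1.38 to 2.22 on LEC arrays. Markers of the choroid plexus, a ventricular tissue next to the hippocampus, stood apart on 3 DG arrays (ACR7 replicate 2, CTR14b replicate 5 and ACR14 replicate 3), at 4.47 to 5.67, against -0.76 to 2.08 on the other 23.

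Of the 10 genes, 8 passed the detection filter in each region. The Hlf probe was detected on 2 of 26 DG arrays and on 2 of 28 LEC arrays. The probe of Cry1, a repressor that acts with the PER proteins, was detected on 0 arrays of either region. No level or difference is given for these 2 genes, and their probes say only that the signal was not above background. For Per1, Per2, Tef, Nr1d1 and Clock a second, dimmer probe also passed.

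Between the regions, 6 of the 8 genes differed in a joint fit of the 54 arrays that treated each mouse as a random effect, where 69.3% of all genes were called. DG was higher for Per3 (log2 difference DG minus LEC 0.59, SE 0.06, adjusted p = 4.27e-11), Clock (0.23, SE 0.05, adjusted p = 0.000157) and Per2 (0.21, SE 0.07, adjusted p = 0.00951). DG was lower for Dbp (-0.58, SE 0.07, adjusted p = 1.34e-09), Nr1d1 (-0.55, SE 0.05, adjusted p = 1.76e-12) and Per1 (-0.49, SE 0.10, adjusted p = 4.52e-05). The difference was -0.17 for Nr1d2 (SE 0.08, adjusted p = 0.0522) and -0.08 for Tef (SE 0.06, adjusted p = 0.17). With 69.3% of genes called, 6 of 8 is close to the share among all genes. With every probe tested on its own, the difference was 0.72 on the dimmer probe of Clock and 0.33 on that of Per2. The dimmer Clock probe was detected on 25 of 26 DG arrays but on only 12 of 28 LEC arrays.

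Promoter windows of 300 bases (250 before to 50 after the transcription start) were available from RefSeq, build GRCm38.p6, for 9 of the 10 genes and 13 starts. Per2 had no entry. The 3 windows shown are those of Per1 and Dbp, because both genes are called below, and of Per3, because it holds 2 matches. They were searched on both strands for the E-box CACGTG, the D-box TTATGTAA or TTATGCAA, the ROR element NTAGGTCA and the CRE TGACGTCA, and matches are in capitals. The Per1 window (first of 2 starts, chr11:69098699-69098998, plus strand) holds an E-box that begins 166 bases before the start and a D-box that begins 24 bases before it. The Per3 window (chr4:151044616-151044915, minus strand) holds 2 D-boxes, which begin 205 and 158 bases before the start. The Dbp window (chr7:45704997-45705296, plus strand) holds none of the 4 motifs.
Per1: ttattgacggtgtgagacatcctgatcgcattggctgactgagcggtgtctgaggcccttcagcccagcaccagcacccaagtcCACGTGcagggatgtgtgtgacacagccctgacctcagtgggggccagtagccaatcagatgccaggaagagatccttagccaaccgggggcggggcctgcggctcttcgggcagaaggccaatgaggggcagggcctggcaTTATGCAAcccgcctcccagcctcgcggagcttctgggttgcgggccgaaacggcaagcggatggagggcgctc
Per3: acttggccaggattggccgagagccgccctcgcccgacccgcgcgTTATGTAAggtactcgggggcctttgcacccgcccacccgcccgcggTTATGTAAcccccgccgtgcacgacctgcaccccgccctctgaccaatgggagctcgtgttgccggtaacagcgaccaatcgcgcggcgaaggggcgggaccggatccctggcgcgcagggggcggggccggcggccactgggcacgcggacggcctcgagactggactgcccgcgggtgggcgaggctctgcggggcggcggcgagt
Dbp: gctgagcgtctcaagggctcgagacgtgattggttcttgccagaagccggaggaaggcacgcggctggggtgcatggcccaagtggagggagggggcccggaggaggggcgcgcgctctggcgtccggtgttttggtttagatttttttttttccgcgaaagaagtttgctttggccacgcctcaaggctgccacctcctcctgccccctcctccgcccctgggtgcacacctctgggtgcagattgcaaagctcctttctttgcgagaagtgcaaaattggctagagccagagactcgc
The matches in these windows do not overlap each other. Among the other windows, Cry1 and both starts of Tef have an E-box, Hlf has a CRE, and the second start of Per1 and the starts of Clock, Nr1d1 and Nr1d2 have no match. Of all 32851 promoter windows of the same length, 7.15% hold the E-box, 1.66% the D-box, 2.59% the ROR element and 1.79% the CRE. A match describes the letters only and is not evidence of binding, and a window without one says only that these letters are absent from it.

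Which clock genes differed after 28 days of running was asked by comparing RUN28 with CTR28. In LEC, Per1, Per2 and Clock were lower in runners, 3 of the 8 genes, where 14.9% of all genes were called and 7.67% were called lower. The median over the 8 genes was -0.19, against -0.01 over all genes. Per1, a core repressor that also responds fast to neuronal activity, had levels of 1.94, 1.85 and 1.82 in RUN28, against 3.27, 3.68, 2.60 and 3.89 in CTR28. All runners lay below all controls, and the runners were tightly grouped while the controls spread widely. The log2 fold change was -1.49 (SE 0.29, adjusted p = 0.00286), a level 2.81-fold lower in runners, and the second Per1 probe gave -1.36. In this bulk tissue, fewer cells of a type and less RNA per cell cannot be told apart.

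Per2, the paralogous repressor, had levels of 1.73, 1.41 and 1.35 in LEC RUN28, against 2.44, 2.75, 1.84 and 2.60 in CTR28. Again no runner reached the lowest control, CTR28 replicate 3, which was also the lowest control for Per1. Per2 was 1.88-fold lower in runners (log2 fold change -0.91, SE 0.21, adjusted p = 0.00628), and its second probe gave -0.86. Clock, the activator of the loop, had levels of 2.23, 2.22 and 2.04 in RUN28, against 2.48, 2.52, 2.46 and 2.55 in CTR28, without overlap. Its difference was smaller, 1.27-fold lower in runners (-0.34, SE 0.11, adjusted p = 0.0403), and -0.19 on the dimmer probe. That dimmer probe was detected on 0 of the 3 RUN28 arrays and on 2 of the 4 CTR28 arrays, so its value is near background. Clock lost its call when any array but CTR28 replicate 3 was left out (adjusted p 0.0567 to 0.19). Without RUN28 replicate 3, Per1 was called, while Per2 stood at an adjusted p of 0.0502.

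The other 5 genes were not called in this comparison, though Dbp was (adjusted p = 0.0284) when only the RUN28 and CTR28 arrays were fitted. Dbp had levels of 5.02, 5.11 and 5.17 in LEC RUN28, against 4.59, 4.58, 4.88 and 4.70 in CTR28, the opposite direction to Per1 (0.41, SE 0.17, adjusted p = 0.0926). Tef, which like DBP activates D-boxes, lay the other way, at 3.42, 3.28 and 3.36 in RUN28, against 3.59, 3.56, 3.71 and 3.77 in CTR28 (-0.30, SE 0.15, adjusted p = 0.162). Neither gene overlapped between the groups, so 5 of the 8 genes did not overlap (4 lower and 1 higher), where 14.2% of all genes lay wholly lower and 14.2% wholly higher. Nr1d1 (0.24), Nr1d2 (-0.07) and Per3 (-0.04) overlapped between the groups.

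**Figure D1:**
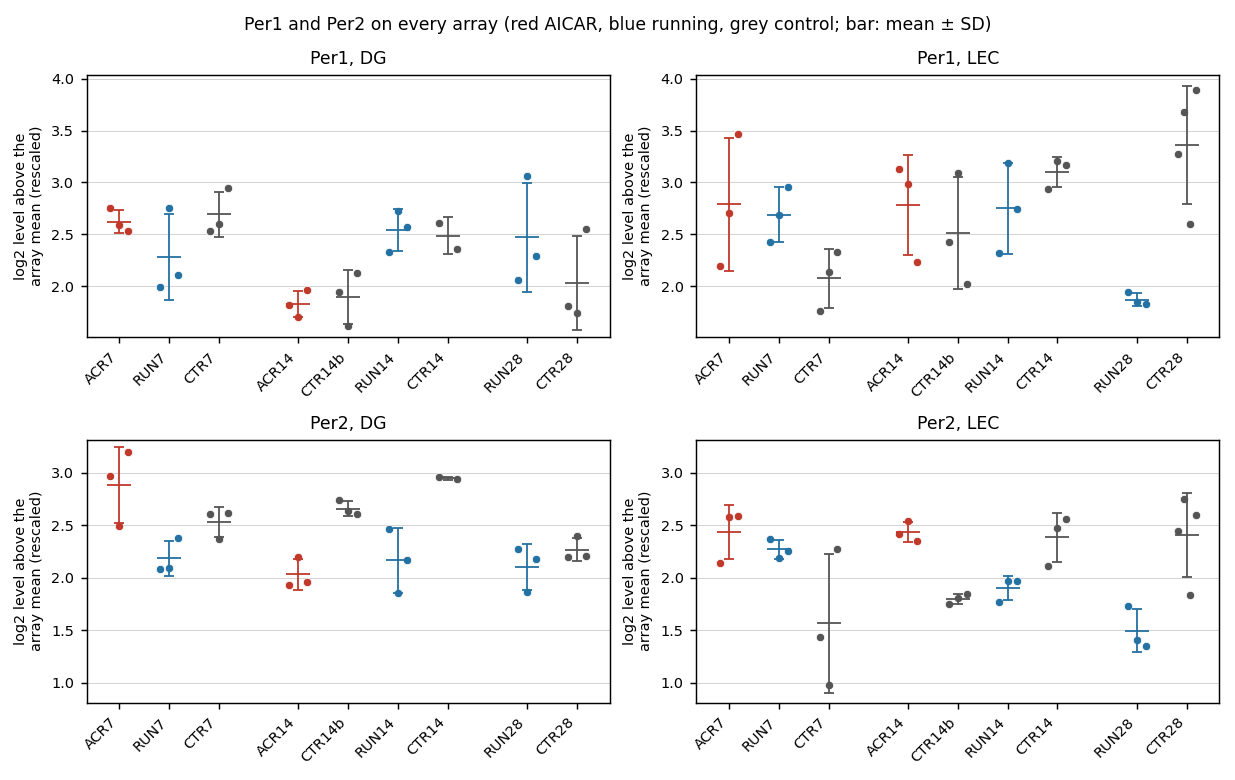
Levels of Per1 and Per2 on every array, as scaled log2 intensity with 0 at the array mean, by group in DG and LEC (red AICAR, blue running, grey control, bars mean ± SD). In LEC, the 3 RUN28 mice sit at 1.82 to 1.94 for Per1, below all 4 CTR28 mice at 2.60 to 3.89.

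Of 16 further core clock genes, 12 were tested in LEC. In RUN28, 2 of the 12 fell and 0 rose, where 7.67% of all genes were called lower: Nfil3, a repressor at D-boxes (-0.56, adjusted p = 0.0117), and Csnk1d, a kinase that phosphorylates PER proteins (-0.46, adjusted p = 0.015). The median of the 12 was -0.22, and 6 of them had an unadjusted p under 0.05, where 30.9% of all genes did. Arntl, which encodes BMAL1, stood at -0.32 (adjusted p = 0.067) and Cry2 at -0.39 (adjusted p = 0.0701). Of 3 tested rhythmic output genes (Usp2, Nampt, Alas1), 0 were called and 1 had an unadjusted p under 0.05, where 30.9% of all genes did.

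Genes of other groups also differed in the same comparison, where 14.9% of all genes were called and 7.67% were called lower. Of 10 immediate early genes tested, transcripts that neurons induce when active, 2 fell (Fosb -1.15, adjusted p = 0.01; Egr1 -0.65, adjusted p = 0.0268) and all 10 stood below 0, with a median of -0.87. Their mean level was 1.55 to 2.68 in RUN28, against 2.79 to 3.21 in CTR28. Of 7 temperature-responsive genes, the cold-induced Rbm3 (1.03, adjusted p = 0.000792) and Cirbp (0.65, adjusted p = 0.000937) rose, and the heat-shock genes Hspa1a (-0.60, adjusted p = 0.0169) and Dnajb1 (-0.50, adjusted p = 0.00445) fell. Of 10 glucocorticoid-responsive genes, 0 were called and the median was -0.18. Among them 4 had an unadjusted p under 0.05, where 30.9% of all genes did. Among markers of other cells, the oligodendrocyte gene Mog rose (1.05, adjusted p = 0.0193), 1 of 4 tested, with a mean level of the list of 4.33 to 5.01 in RUN28, against 3.81 to 4.03 in CTR28. The endothelial genes Flt1 (-0.67, adjusted p = 0.0357) and Slc2a1 (-0.38, adjusted p = 0.0349) fell, 2 of 4 tested, with a list level of 1.46 to 1.59 in RUN28, against 1.74 to 1.85 in CTR28. The part of these groups, and of the hour of death, in the clock gene differences was not tested.

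At 7 days, the LEC comparison with AICAR called 2 of the 8 genes, both higher, where 1.39% of all genes were called and 0.796% were called higher. The median over the 8 genes was 0.05, against -0.002 over all genes. Dbp, an activator whose own transcript is among the most strongly rhythmic in many tissues, had levels of 5.48, 5.23 and 5.44 in ACR7, against 4.34, 4.62 and 4.57 in CTR7. Every ACR7 mouse lay above every control, and both groups were tight. Dbp was 1.84-fold higher in ACR7 (log2 fold change 0.88, SE 0.18, adjusted p = 0.0193). Per2 had levels of 2.14, 2.57 and 2.59 in ACR7, against 1.43, 0.98 and 2.28 in CTR7. Here CTR7 replicate 3 lay within the ACR7 range, and the controls spread over more than 1 log2 unit. Per2 was 1.83-fold higher in ACR7 (0.87, SE 0.22, adjusted p = 0.0473), and its second probe gave 0.75. Without either of CTR7 replicates 1 and 2 or ACR7 replicates 1 and 2, neither gene was called (adjusted p 0.0673 to 0.169 for Dbp and 0.0941 to 0.22 for Per2). Without ACR7 replicate 3, Dbp alone was called, at 0.0415.

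The remaining genes were not called in LEC ACR7. Per1 had levels of 2.19, 2.70 and 3.47 in ACR7, against 1.76, 2.13 and 2.32 in CTR7 (0.72, SE 0.31, adjusted p = 0.257), and the groups overlapped. Clock had levels of 2.15, 2.26 and 2.11 in ACR7, against 2.62, 2.36 and 2.49 in CTR7 (-0.32, SE 0.12, adjusted p = 0.172), with no overlap. So 1 gene lay wholly higher and 1 wholly lower, where 9.45% of all genes lay wholly higher and 9.15% wholly lower. Per3 (-0.17), Tef (0.02), Nr1d1 (0.07) and Nr1d2 (-0.01) stayed close to 0.

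Of the 12 further clock genes tested, 1 was called in LEC ACR7, where 1.39% of all genes were. Ciart, a rhythmic repressor of CLOCK and BMAL1, rose (0.65, SE 0.16, adjusted p = 0.0346). At an unadjusted p under 0.05 it was 6 of the 12, where 16.1% of all genes passed. Of 10 immediate early genes 0 were called, with a median of 0.06. Among them 2 had an unadjusted p under 0.05, where 16.1% of all genes did. Of 2 choroid plexus markers tested (of 6), Clic6 rose (1.47, adjusted p = 0.023) and Ttr stood at 0.37 (adjusted p = 0.821), and their mean level was 0.31 to 1.17 in ACR7, against -0.86 to 0.85 in CTR7. Of 4 striatal markers tested, 0 were called and 1 had an unadjusted p under 0.05, against the same 16.1% of all genes. Their median was 0.81, and their mean level was 1.65 to 2.45 in ACR7, against 1.09 to 1.73 in CTR7. The part of this tissue content in the Dbp and Per2 differences was not tested.

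After 7 days of running, 0 of the 8 genes were called in LEC, where 0.971% of all genes were called. At an unadjusted p under 0.05 the count was 2 of 8, where 17% of all genes passed. Of the 12 further core clock genes tested, 4 passed that limit. Dbp had levels of 4.53, 5.41 and 5.48 in RUN7, against 4.34, 4.62 and 4.57 in CTR7 (0.63, SE 0.18, adjusted p = 0.0737). RUN7 replicate 1 sat among the controls and the other 2 runners at the level of ACR7, and without that replicate Dbp was called (0.94, adjusted p = 0.00389). The same mouse is replicate 2 in DG RUN7, where it had the lowest Dbp level of the runners, at 4.46. Per2 had levels of 2.37, 2.18 and 2.25 in RUN7, against the same CTR7 mice at 1.43, 0.98 and 2.28 (0.71, SE 0.22, adjusted p = 0.113). Per1 levels of 2.42, 2.69 and 2.96 in RUN7 lay above the 1.76, 2.13 and 2.32 of CTR7 without overlap, as 7.84% of all genes did (0.62, SE 0.31, adjusted p = 0.317). ACR7 and RUN7 share the CTR7 controls, so the direction of their differences from CTR7 is not independent. Set against each other, ACR7 and RUN7 differed by 0.25 for Dbp (SE 0.18, adjusted p = 0.986) and by 0.17 for Per2 (SE 0.22, adjusted p = 0.995), and 0 of the 8 genes were called, also at an unadjusted p under 0.05. In that comparison 0.152% of all genes were called.

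At 14 days, 0 of the 8 genes were called in LEC for ACR14 against CTR14b or for RUN14 against CTR14, and 0% of all genes were called in either. At an unadjusted p under 0.05 the counts were 1 and 2 of 8 genes, where 14.3% and 8.75% of all genes passed. Of the 12 further core clock genes tested, 1 passed that limit in ACR14 and 4 in RUN14. Per2 had levels of 2.42, 2.54 and 2.35 in ACR14, against 1.75, 1.80 and 1.84 in CTR14b (0.64, SE 0.22, adjusted p = 0.251). In RUN14 it had 1.77, 1.97 and 1.97, against 2.11, 2.47 and 2.56 in CTR14 (-0.48, SE 0.22, adjusted p = 0.552). Neither pair of groups overlapped, and the directions were opposite. Of all genes, 9.76% lay wholly higher in ACR14 and 8.56% wholly lower in RUN14. Clock and Per3 also lay wholly lower in RUN14, and Dbp wholly higher, as 10.7% of all genes did. Between the 2 control sets, the Per2 difference (CTR14b minus CTR14) was -0.59 (SE 0.22, adjusted p = 0.523), without overlap, as 7.33% of all genes lay wholly lower. Between the LEC control sets 0 of the 8 genes and 0% of all genes were called, and 1 of the 8 had an unadjusted p under 0.05, where 7.24% of all genes did. The AICAR effect on Per2 minus the running effect on it was 1.11 (SE 0.32, adjusted p = 0.286).

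The change of the running effect from 7 to 28 days in LEC was past the threshold for Per1 and Per2, 2 of 8 genes, where 17.5% of all genes were called. The RUN28 effect minus the RUN7 effect was -2.11 for Per1 (SE 0.43, adjusted p = 0.00282) and -1.62 for Per2 (SE 0.31, adjusted p = 0.00178). The effects behind it were -1.49 at 28 days and 0.62 at 7 days for Per1, and -0.91 and 0.71 for Per2. The controls differed too: against CTR7, CTR28 was higher for Per1 (1.29, SE 0.29, adjusted p = 0.00442) and Per2 (0.84, SE 0.21, adjusted p = 0.00777), 2 of 8 genes, where 16.2% of all genes were called and 7.37% called higher. The Per2 call was lost without CTR7 replicate 1 or 2 (adjusted p up to 0.0723). Since CTR28 stands in both comparisons, a high level in these controls enters both. Per1 averaged 1.87 ± 0.06 in RUN28 and 3.36 ± 0.57 in CTR28 (SD, n = 3 and 4). In CTR7 it averaged 2.07 ± 0.29 (SD, n = 3), close to RUN28. Of the 9 LEC groups, RUN28 had the lowest and CTR28 the highest mean of Per1, and no mean differed from its neighbour in that order by more than the larger of their SDs. In the same control comparison, CTR28 against CTR7, 5 of 10 immediate early genes rose (median 0.74), as did the clock genes Bhlhe40 (0.59, adjusted p = 0.00344), an E-box repressor, and Csnk1d (0.43, adjusted p = 0.0189), while the ROR-element activators Rora (-0.36, adjusted p = 0.0389) and Rorb (-0.74, adjusted p = 0.00398) fell. Markers of other cells stood apart too. Endothelial Flt1 (0.99, adjusted p = 0.003) and Slc2a1 (0.51, adjusted p = 0.00545) rose, 2 of 4 tested, with a list level of 1.74 to 1.85 in CTR28, against 1.46 or less in CTR7. Oligodendrocyte Mog fell (-0.92, adjusted p = 0.0328), 1 of 4 tested, with a list level of 3.81 to 4.03 in CTR28, against 4.20 to 4.68 in CTR7. In RUN7, which also enters the change of the running effect, the endothelial list stood at 1.81 to 2.02. Against CTR7, 4 of its 4 tested genes had an unadjusted p under 0.05, where 17% of all genes did. The oligodendrocyte list stood at 3.72 to 4.19 in RUN7, with 1 of 4 genes at that limit. The part of these markers in the Per1 and Per2 differences was not tested. Age, time under treatment and hour of death cannot be told apart here.

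In DG, 0 of the 8 genes were called in any of the 5 treatment comparisons. Of all genes, 0% were called in ACR7, ACR14 and RUN14, 3.63% in RUN7 and 0.251% in RUN28. At an unadjusted p under 0.05 the counts were 2 genes in ACR7, 2 in RUN7, 3 in ACR14, 2 in RUN14 and 2 in RUN28, each of 8, where 14.5%, 22.1%, 4.08%, 6.77% and 11.9% of all genes passed. The medians over the 8 genes were 0.19, -0.18, -0.02, -0.04 and 0.10 in that order of groups, against 0.05, 0.04, 0.01, -0.03 and 0.05 over all genes. Of 12 further core clock genes tested, 0 were called in each of the 5, and 1 or 2 had an unadjusted p under 0.05 in each.

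Per2 in DG stood lower in both 14-day comparisons. It had levels of 1.93, 2.20 and 1.96 in ACR14, against 2.74, 2.63 and 2.60 in CTR14b (-0.63, SE 0.17, adjusted p = 0.999). In RUN14 it had 2.47, 1.85 and 2.17, against 2.96 and 2.94 in CTR14 (-0.78, SE 0.19, adjusted p = 0.722). Neither pair overlapped, as 4.42% of all genes lay wholly lower in ACR14 and 14.3% wholly lower in RUN14. Set against CTR14b instead, Per2 stood at -0.49 in RUN14. Between the DG control sets (CTR14b minus CTR14) the difference was -0.29 for Per2, -0.59 for Per1, -0.64 for Per3 and -0.53 for Clock (adjusted p = 0.421, 0.245, 0.172 and 0.189), and 0 of 8 genes were called, where 0.126% of all genes were. At an unadjusted p under 0.05 it was 3 of 8, where 17.8% of all genes passed. At 7 days, Per2 had levels of 2.96, 2.49 and 3.20 in ACR7 and 2.08, 2.10 and 2.38 in RUN7, against 2.61, 2.37 and 2.61 in CTR7. The means of AICAR (0.35, adjusted p = 0.327) and running (-0.35, adjusted p = 0.225) stood on either side of the shared controls. Each of these groups overlapped with the controls. The ACR7 mice lay wholly above the RUN7 mice (0.70, SE 0.17, adjusted p = 0.493), as did those of Per3 at 0.95, 0.36 and 1.13, against 0.16, -0.43 and 0.13 (0.86, SE 0.21, adjusted p = 0.504). In that comparison 9.55% of all genes lay wholly higher and 0% were called.

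Per1 in DG did not follow its course in LEC. It had levels of 2.06, 3.06 and 2.28 in DG RUN28, against 1.80, 1.74 and 2.55 in CTR28, with overlap (0.44, SE 0.24, adjusted p = 0.45). The RUN28 effect on Per1 in DG minus that in LEC was 1.96 (SE 0.42, adjusted p = 0.00588), 1 of 8 genes, where 4.17% of all genes were called. For Per2 this difference between regions was 0.78 (SE 0.29, adjusted p = 0.102). At 7 days, the RUN7 effect on Per2 in DG minus that in LEC was -1.07 (SE 0.30, adjusted p = 0.0433), 1 of 8 genes, where 2.5% of all genes were called. That call was lost without any 1 of 10 of the 12 arrays involved, at adjusted p up to 0.137. For the AICAR effect, 0 of 8 genes differed between regions at 7 or at 14 days, where 0.233% and 0% of all genes were called, and at an unadjusted p under 0.05 there was 1 gene at each time.

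Per3, the paralogue with a lesser part in the loop, was called once. It had levels of -0.15, 0.11 and -0.33 in DG CTR28, against 0.82, 0.51 and 0.25 in CTR7 (-0.65, SE 0.21, adjusted p = 0.0496), 1 of 8 genes, without overlap, where 11.1% of all genes were called and 6.8% were called lower, and 13.7% lay wholly lower. Per3 lost this call when CTR28 replicate 1 or 3 or CTR7 replicate 1, 2 or 3 was left out (adjusted p 0.059 to 0.196), with a difference of -0.79 to -0.50 over all 6 arrays left out in turn. In DG RUN7, levels of 0.16, -0.43 and 0.13 lay below the 0.82, 0.51 and 0.25 of CTR7 (-0.57, SE 0.21, adjusted p = 0.115), without overlap, as 14.3% of all genes did. In LEC, where its signal was detected on 25 of 28 arrays, the treatment differences of Per3 lay between -0.21 and 0.23.

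**Figure D2:**
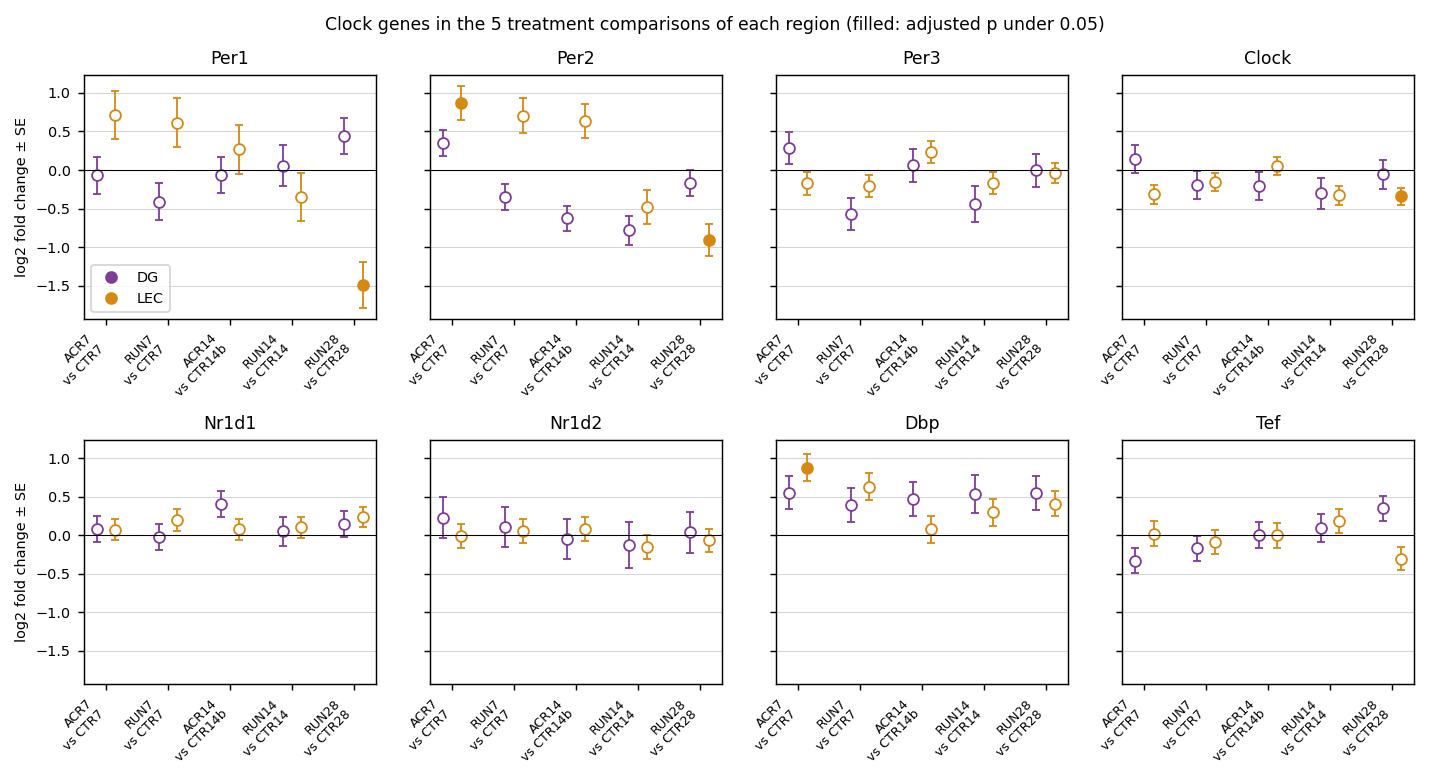
Log2 fold change ± SE of the 8 tested genes in the 5 treatment comparisons of each region (purple DG, orange LEC, filled where the adjusted p is under 0.05). Filled points are Per1, Per2 and Clock in LEC RUN28 and Per2 and Dbp in LEC ACR7, and the 10 Dbp points span 0.08 to 0.88.

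On the brightest probe of each, Clock and the REV-ERB genes moved little. Beside the call in LEC RUN28, Clock had levels of 2.19, 2.03 and 2.08 in LEC RUN14, against 2.50, 2.34 and 2.45 in CTR14 (-0.33, SE 0.12, adjusted p = 0.43), without overlap. Of all genes, 8.56% lay wholly lower there. Across the 10 treatment comparisons the differences of Clock lay between -0.34 and 0.14. Its dimmer probe, detected on 25 of 26 DG arrays, gave -0.55 in DG RUN7, against -0.19 on the brighter one. In DG ACR14 the dimmer probe gave 0.11, against -0.21. Nr1d1, which encodes a repressor of Arntl, ranged from -0.02 to 0.41, with its highest value in DG ACR14, at levels of 1.05, 0.54 and 1.23, against 0.52, 0.57 and 0.50 in CTR14b (0.41, SE 0.17, adjusted p = 0.999). There, ACR14 replicate 2 sat among the controls. Nr1d2 ranged from -0.15 to 0.23 and was not past an unadjusted p of 0.05 in any of the 10.

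Dbp stood above its controls by 0.08 to 0.88 in the 10 treatment comparisons, with a median of 0.50, and was called in 1 of them, LEC ACR7. In DG its differences were 0.55 in ACR7, 0.39 in RUN7, 0.47 in ACR14, 0.53 in RUN14 and 0.55 in RUN28 (SE 0.22 to 0.24, adjusted p = 0.239, 0.296, 0.999, 0.722 and 0.347). With 1 array left out, the DG value lay between 0.22 (without RUN7 replicate 1) and 0.56 in RUN7, between 0.26 (without CTR14 replicate 1) and 0.81 (without CTR14 replicate 3) in RUN14, and between 0.34 (without CTR28 replicate 3) and 0.69 in RUN28. In LEC they were 0.88 in ACR7, 0.63 in RUN7, 0.08 in ACR14, 0.30 in RUN14 and 0.41 in RUN28. The sign in LEC ACR14 rested on the control set, since Dbp stood at -0.0971 against CTR14 and at -0.0093 against both 14-day sets together, and at -0.0496 without ACR14 replicate 1. The 7-day comparisons of a region share CTR7, and both regions come largely from the same mice, so these values are not independent of each other. DG levels were 4.98, 5.35 and 4.53 in ACR7 and 5.14, 4.46 and 4.79 in RUN7, against 4.45, 4.44 and 4.31 in CTR7. All treated mice lay above all 3 controls there, as 11.4% of all genes did for ACR7 and 17.6% for RUN7, though the lowest treated mice exceeded the highest control by little. At 28 days DG levels were 5.09, 4.79 and 4.83 in RUN28, against 4.63, 4.50 and 3.94 in CTR28, again without overlap, as for 6.7% of all genes.

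At 14 days, Dbp in DG had levels of 4.68, 4.76 and 4.88 in ACR14, against 4.36, 4.46 and 4.08 in CTR14b, without overlap, as for 5.93% of all genes. In DG RUN14 the levels were 4.56, 5.21 and 5.07, against 4.14 and 4.69 in CTR14, with overlap. In LEC the ACR14 mice were at 5.07, 4.44 and 4.92, against 4.88, 4.58 and 4.74 in CTR14b, and the groups overlapped fully. The LEC RUN14 mice were at 5.04, 5.20 and 5.39, against 4.97, 4.94 and 4.82 in CTR14, without overlap, as for 10.7% of all genes. The ACR14 effect minus the ACR7 effect in LEC was -0.80 (SE 0.25, adjusted p = 0.132). Of the 2 DG arrays with high choroid plexus markers in AICAR groups, leaving out ACR7 replicate 2 gave 0.35 for Dbp in ACR7, and leaving out ACR14 replicate 3 gave 0.42 in ACR14. Without CTR14b replicate 5, the third such array, Dbp stood at 0.55 in ACR14.

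**Figure D3:**
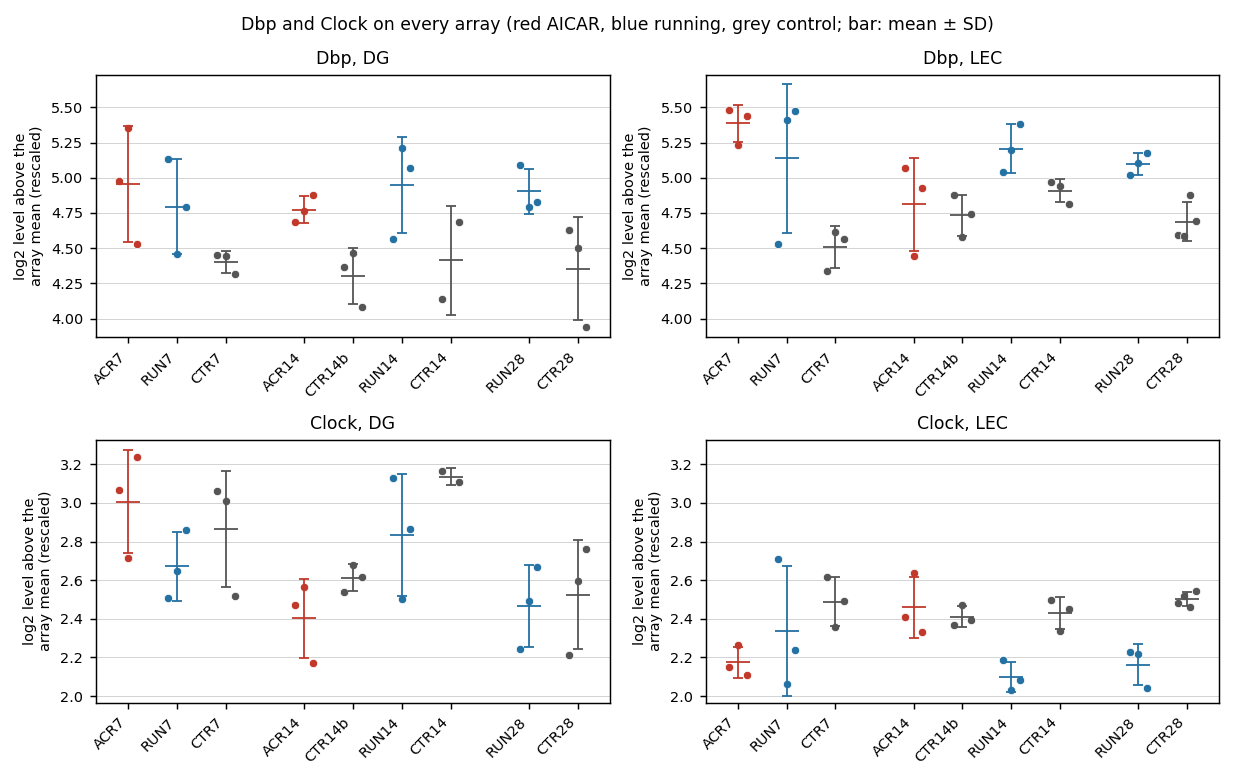
Levels of Dbp and Clock on every array, as scaled log2 intensity with 0 at the array mean, by group in DG and LEC (red AICAR, blue running, grey control, bars mean ± SD). In LEC, the ACR7 mice sit at 5.23 to 5.48 for Dbp, against 4.34 to 4.62 in CTR7, while Clock in LEC RUN28 sits at 2.04 to 2.23, against 2.46 to 2.55 in CTR28.

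Tef, by contrast with its relative Dbp, was not called and its differences lay on both sides of 0, from -0.33 in DG ACR7 to 0.35 in DG RUN28. In DG ACR7 it had levels of 3.48, 3.29 and 3.40, against 3.65, 3.65 and 3.85 in CTR7 (-0.33, SE 0.16, adjusted p = 0.363), without overlap, as 7.41% of all genes lay wholly lower. In DG RUN28 it had 3.90, 4.05 and 3.47, against 3.50, 3.30 and 3.58 in CTR28 (0.35, SE 0.16, adjusted p = 0.412), where RUN28 replicate 3 lay among the controls. The second, much dimmer Tef probe lay on the other side of 0 in DG, at 0.23 in ACR7 and -0.43 in RUN28, so the direction of these DG differences depends on the probe. In LEC RUN28 it gave 0.36, but it was detected on 0 of the 4 CTR28 arrays there and on 15 of 28 LEC arrays. That value therefore cannot settle a direction.

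Mice of a group differed in these genes to different degrees. The within-group SD of Per1 in LEC was 0.435, larger than that of 98.8% of genes, and that of Per2 in LEC 0.302, larger than 94.7%, against a median of 0.164 over all genes. In DG, Nr1d2 (92.6% of genes smaller) and Per1 (87.5%) varied most, while Per2 (47.5%), Tef (45.1%) and Nr1d1 (49.4%) were near the median of 0.209.

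Within groups, Dbp and Clock ran opposite to each other. Over deviations from the group means, Pearson's r was -0.61 on the 26 DG arrays and -0.86 on the 28 LEC arrays. In LEC, Dbp ran with Tef (r = 0.63) and Nr1d1 (r = 0.59), and Clock against Tef (-0.66) and Nr1d1 (-0.71). In DG the r of Dbp was -0.09 with Tef and 0.03 with Nr1d1. LEC RUN7 replicate 1 stood far from the other runners of its group, at 4.53 for Dbp (against 5.41 and 5.48). It had 2.82 for Tef (against 3.61 and 3.54) and 2.71 for Clock (against 2.06 and 2.24). The LEC values of r lean on this array, and r without it was not computed. Per1 and Per2 had r = -0.41 in DG and 0.52 in LEC, and Per2 and Per3 had 0.65 in DG and -0.14 in LEC. These are descriptions of points that share an array, its RNA and its scaling. Of 8277 genes tested in both regions, those whose deviations were most like Dbp's were Alkbh7, Lsm4, Bri3, Snrpd2 and Rps10, with a mean r over both regions of 0.80 to 0.83. Those most like Per1's were Mnt, Iqsec2, Nacc1, Tmem121b and Grik5, with a mean r of 0.81 to 0.86.

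**Figure D4:**
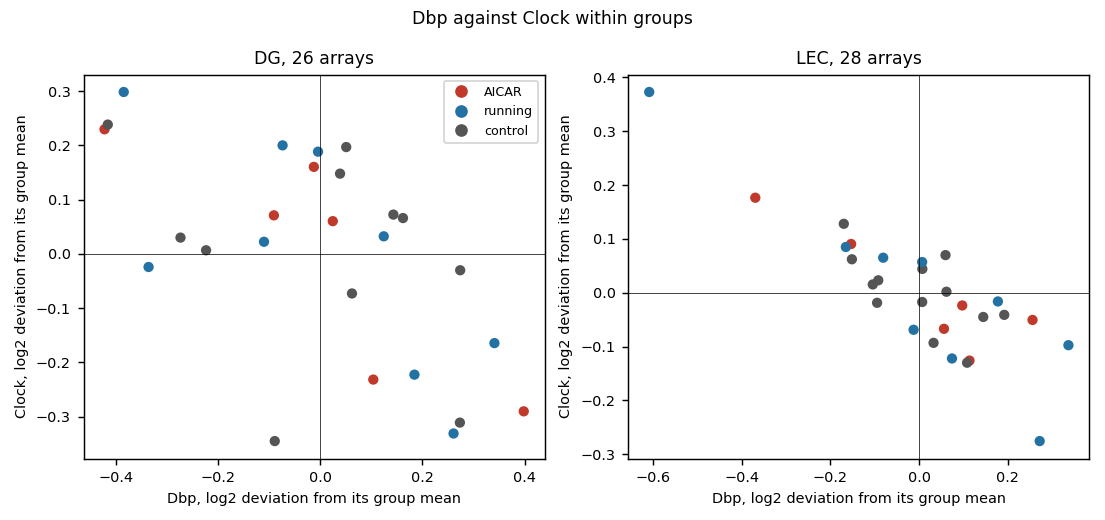
Deviation of Clock from its group mean against that of Dbp on each array, both in log2 units, for 26 DG and 28 LEC arrays (red AICAR, blue running, grey control). Arrays with more Dbp have less Clock in both regions, with r = -0.61 in DG and -0.86 in LEC.

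The genes most like Dbp stood on the same side of 0 as Dbp in some comparisons and on the other side in others. In LEC ACR7 the median difference of these 5 genes was 0.32 with 0 called, against 0.88 for Dbp, and their mean level was 3.84 to 4.11 in ACR7, against 3.66 to 3.79 in CTR7. In LEC RUN28 the median was 0.32, against 0.41 for Dbp, with 2 called, where 14.9% of all genes were called. In LEC ACR14 the median was -0.36, against 0.08 for Dbp. In DG the medians were -0.13 in ACR7 and 0.27 in RUN28, against 0.55 for Dbp in both. The 5 genes most like Per1 had a median of -0.32 in LEC RUN28 with 2 called, against -1.49 for Per1. The part of such array-wide variation in the Dbp and Per1 differences was not tested.

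Whether a mouse that was high in one region was also high in the other was asked in the 21 mice with both regions, by the correlation of deviations from the group means. An exact two-sided permutation test used all 13824 ways to re-pair mice within groups. Of 8273 genes, 0 passed an adjusted p of 0.05 and 397 (4.8%) an unadjusted one, and the median r was -0.07. Nr1d2 had the highest r among the clock genes, 0.67 (Spearman's rho 0.68), with exact permutation p = 0.0241 and 0.025, and adjusted p = 0.999 and 0.976 over all genes. The 2 mice farthest out in DG were both of CTR28, and leaving them out also removed the last mouse of that group, so that 18 mice gave r = 0.54 with exact permutation p = 0.0738. The other 7 genes had r between -0.49 (Tef) and 0.19 (Dbp), with -0.14 for Per1, 0.06 for Per2 and -0.15 for Clock. Nr1d1 had r = -0.46 (exact permutation p = 0.148) and rho = -0.56 (p = 0.0477, adjusted p = 0.976). Without the 2 mice farthest out for each gene, and any mouse then alone in its group, r was -0.81 for Nr1d1 (19 mice, exact permutation p = 0.00586), -0.59 for Per1 (18 mice, p = 0.0169) and 0.34 for Per3 (18 mice, p = 0.0217). After adjustment over all genes, 0 of the 8 passed there too.

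**Figure D5:**
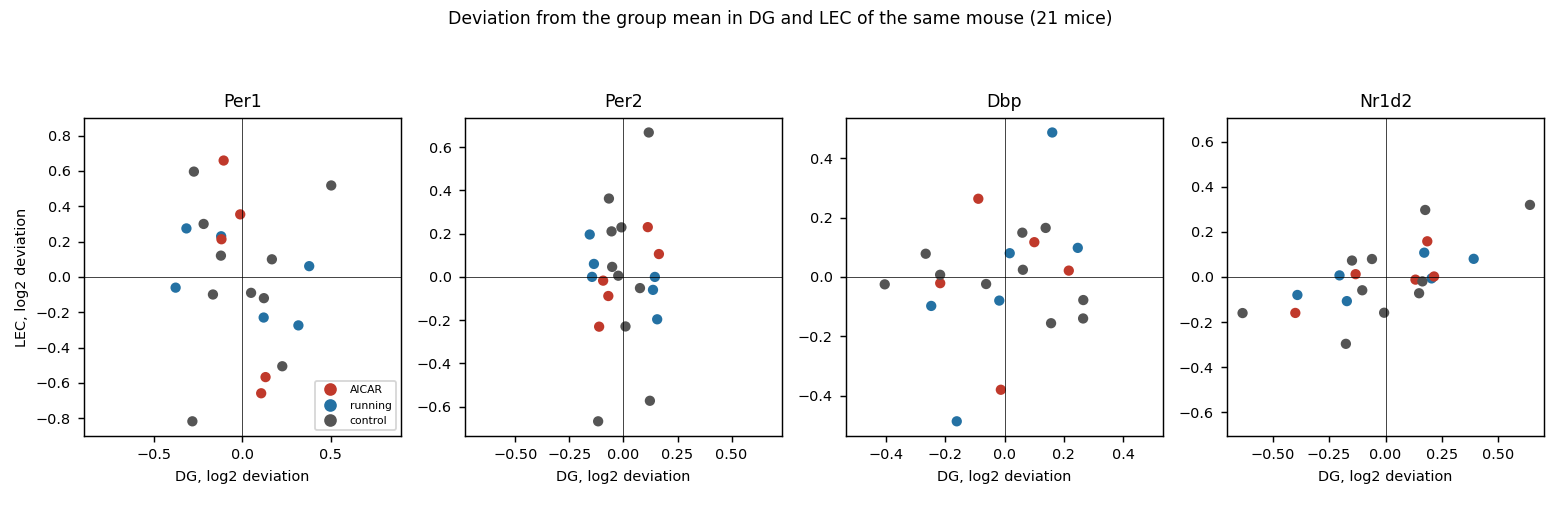
Deviation from the group mean in LEC against that in DG of the same mouse, in log2 units, for Per1, Per2, Dbp and Nr1d2 in 21 mice (red AICAR, blue running, grey control). Points follow no line for Per1 (r = -0.14), Per2 (0.06) and Dbp (0.19), and slope upward for Nr1d2 (0.67).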

How the data were processed

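RNA of each region was hybridised to Illumina MouseRef-8 arrays, and the deposited intensity of each probe came, per the submitters' processing notes, from GenomeStudio 1.6.0. The authors deposited with it a detection p-value per probe and a score, the log intensity z-transformed within each array. Background subtraction is not given in the sources used here, and precision rests on the number of arrays. Here log2 intensities were z-transformed within arrays, which gave the same values as the deposited score. They were then multiplied by the mean array SD of the region (1.86 in DG and 1.75 in LEC). Probes were named from the platform annotation (23978 of 25697 had a symbol, 23971 of them matched to RefSeq). Probes with a detection p of 0.02 or less on every array of at least 1 group were kept, and the brightest probe stood for a gene. Groups were compared with limma 3.58.1 (R 4.3.3), 1 mean per group over all arrays of a region, with Benjamini-Hochberg adjustment over all genes. Regions were compared in 1 fit of the 54 arrays in which each mouse was a random effect (duplicateCorrelation of -0.06). The study's own z-test was not used, since its formula is not given in the sources used here. Scripts were tested on simulated data. Mice were separate animals by their labels. The clock genes and all gene lists were chosen with earlier results of these data known. All clock genes, the called genes of each list and the 5 genes most like Dbp and Per1 are named. The alternatives were quantile normalization, neqc, other detection limits, each probe on its own, the deposited scores, the arrays of the compared groups alone, the replicate number as a block, other 14-day controls and each array left out. For differences between regions, leaving out arrays was chosen after seeing the data.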

Additional observations from a re-analysis of the deposited data

Results flagged for a closer look

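Nr1d2, which encodes REV-ERB beta, had 1 sample far from the others in LEC CTR28. Replicate 4 stood at a level of 1.37 and the next at 0.91, a gap of 0.937 of the group's whole range, above Dixon's 95% limit for 4 samples. Chance passes that limit in about 1 of 20 groups, and 8 were examined.

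Differences between conditions were past the threshold of limma's test of the difference itself in 4 cases. The running effect in LEC at 28 days minus that at 7 days was -2.11 for Per1 and -1.62 for Per2. The effect of 28 days of running on Per1 was 1.96 higher in DG than in LEC, and the effect of 7 days of running on Per2 was -1.07 in DG relative to LEC. Their errors, adjusted p-values and the levels behind them are given with the clock genes above.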

How the results depend on the processing

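Of 29 comparisons, 19 kept the same number of called clock genes under every alternative, and 404 of 459 alternative counts equalled the main one. Most of the 29 called 0 clock genes in the main fit, so these totals say little about the calls. Among the comparisons with any call, only the RUN28 effect minus the RUN7 effect in LEC kept its count under every alternative. Counts moved as follows. In LEC RUN28 (3 genes called), 4 were called with the arrays of the compared groups alone (Dbp joining), 2 without a detection filter (Per1 and Per2), and 1 to 3 with 1 array left out. Between DG and LEC (6 called), 7 were called with every probe on its own (Tef joining) and under neqc, quantile normalization and no mouse term (Nr1d2 joining). In LEC ACR7 (2 called), 1 was called with every probe on its own, without a detection filter or with the arrays of the compared groups alone, and 0 to 2 with 1 array left out. In LEC CTR28 against CTR7 (2 called), 1 was called with the compared arrays alone and 1 to 2 with 1 left out. In DG CTR28 against CTR7 (1 called), 2 were called with every probe on its own, 0 without the filter or with the compared arrays alone, and 0 to 1 with 1 left out. In LEC RUN7 (0 called), Dbp was called under neqc and under quantile normalization (1 each), and 0 to 1 genes with 1 left out, Per2 without CTR7 replicate 3. For the RUN28 effect in DG minus LEC (1 called), 2 were called under quantile normalization (Per1 and Tef) and 1 to 2 with 1 left out, Tef joining without DG RUN28 replicate 3 and Per2 without LEC CTR28 replicate 3. For the RUN7 effect in DG minus LEC (1 called), 0 were called without the filter and 0 to 1 with 1 left out. For the ACR14 effect minus the RUN14 effect in DG (0 called), 2 (Per1 and Clock) were called with the control sets exchanged. Dbp in LEC ACR14 (0.08) turned to -0.0093 with both 14-day control sets, to -0.0971 with the other set and, with 1 array left out, ranged from -0.0496 (without ACR14 replicate 1) to 0.2632. The cause of these changes was not tested.

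Replicate numbers showed no steady pairing of the mice: over 35 same-numbered pairs in 12 comparisons, deviations correlated at -0.35 to 0.40, and 11 pairs were over 0.1. Deviations within a group sum to 0, so these pairs are not independent. They cannot decide whether mice of the same number shared a batch. With the replicate number as a block, 0 clock genes were called in LEC RUN28 (Per1 at -1.31, adjusted p = 0.0503), 0 in LEC ACR7, 1 in LEC CTR28 against CTR7, 0 in DG CTR28 against CTR7, 1 (Per1) in LEC RUN7 and 1 (Per3) in DG ACR7 against RUN7. The block fit held only the compared groups and the replicate numbers present in both. It therefore left out LEC CTR28 replicate 4, the highest CTR28 mouse for Per1 at 3.89. Its counts differ from the main ones in the arrays used as well as in the block. No paired analysis was possible for ACR14 because its replicate numbers are not those of CTR14b.

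Counts over all genes moved more. In LEC RUN28, 1275 genes were called, 314 to 1639 with 1 array left out and 0 with the replicate block. In LEC ACR7 it was 119, with 0 to 445 left out and 7 with the block. In LEC CTR28 against CTR7 it was 1385, with 503 to 1461 and 347, and in DG CTR28 against CTR7 971, with 318 to 1093 and 0 with the compared arrays alone. In LEC RUN7 it was 83, with 0 to 410, and in DG RUN7 318, with 0 to 688. The change of the LEC running effect called 1494, with 770 to 1756, the RUN28 effect between regions 376, with 169 to 618, and the RUN7 effect between regions 226, with 7 to 566. Signals near background limit Hlf and Cry1 in both regions, and in LEC also Per3 and the dimmer probes of Tef and Clock.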
